A study of Mus musculus with 6 samples.

Results

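The transcripts described are those of 10 genes that build or remodel the actin cytoskeleton: Actb, Actg1, Pfn1, Cfl1, Tmsb4x, Tmsb10, Arpc1b, Coro1a, Capg and Lcp1. They were taken by gene symbol, each matched 1 of the 21899 genes in the files, and all 10 had enough reads to be tested. The 10 had been proposed with the difference between the diets in view. Their values in that comparison are therefore given as a description, with fold changes and standard errors but no p-values, and support nothing.

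Liver RNA was sequenced from 6 C57BL/6 mice, an inbred strain, 3 in each diet group. All mice were 6 weeks old at the start and had 1 week to acclimatise. The control group received CSAA, which in this field stands for a choline-supplemented amino acid-defined feed. The other group was moved over 1 week of mixed feed to CDAA, the choline-deficient counterpart, and livers were taken at week 6 after that change. No transcript marks the feed itself, so the labels could not be checked in the data. Choline-deficient feeds of this kind are known for inflammation and fibrosis of the liver, whereas leukocyte, macrophage and collagen transcripts were lower in the libraries labelled CDAA (for Col1a1, 26.3 ± 10.6 CPM against 126.1 ± 41.6 CPM under CSAA). Whether the labels are as intended was not tested, and every direction given here rests on them. The libraries held 14580676 to 17367173 reads over genes. Whole liver was used, so a lower level of a transcript made mainly by one cell type can mean fewer such cells or less RNA per cell, and these cannot be told apart.

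Actin exists as monomers and as filaments. Profilin feeds monomers to growing filament ends, beta-thymosins hold monomers in reserve, and cofilin severs old filaments and returns their subunits. The Arp2/3 complex starts branches on existing filaments, coronins act on those branches and on filament turnover, capping proteins block filament ends, and plastins bundle filaments. In liver, hepatocytes carry a cortical actin network along the bile canaliculi, whereas macrophages and other leukocytes depend on fast filament turnover to crawl and to engulf, and use forms such as Coro1a and Lcp1 (L-plastin) that are abundant in blood cells.

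Some of the 10 genes have close relatives among the 10, and the coding sequences show how well reads can separate them. Coding sequences from GENCODE M21 (GRCm38) are shown for the thymosin pair in full, with capitals marking the bases at which the pair differs.
Tmsb4x: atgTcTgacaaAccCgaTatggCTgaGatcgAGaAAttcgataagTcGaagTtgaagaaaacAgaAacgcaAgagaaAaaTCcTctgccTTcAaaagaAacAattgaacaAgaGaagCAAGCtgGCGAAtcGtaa
Tmsb10: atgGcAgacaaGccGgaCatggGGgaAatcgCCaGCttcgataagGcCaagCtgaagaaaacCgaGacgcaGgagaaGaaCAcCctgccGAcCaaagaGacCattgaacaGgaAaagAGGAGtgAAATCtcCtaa
The thymosins differed at 40 of 135 coding bases (70.4% identity), and their longest identical stretch was 10 bases. The cytoplasmic actins Actb and Actg1 were closer, with 1000 of 1128 coding bases the same (88.7% identity) and a longest identical stretch of 62 bases. Their first 60 coding bases are shown, since the start holds the codons in which the actins differ in protein as well, again with differing bases in capitals.
Actb: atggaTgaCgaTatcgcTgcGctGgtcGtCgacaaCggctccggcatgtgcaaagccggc
Actg1: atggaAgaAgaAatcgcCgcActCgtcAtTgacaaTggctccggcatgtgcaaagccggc
The sources used here give neither read length nor the handling of multiply aligned reads, so a share of reads exchanged between Actb and Actg1, or with the processed pseudogenes that several of these genes have, was not tested.

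Per length, these transcripts spanned a wide range of levels. The unit is FPKM, reads scaled by gene length and by library total, as the authors deposited it and without further scaling between libraries. In CSAA, Actb stood first with 340.5 ± 38.9 FPKM (mean ± SD, n = 3), followed by Tmsb4x (174.8 ± 13.7), Actg1 (118.8 ± 17.7), Pfn1 (81.6 ± 5.32) and Cfl1 (47.3 ± 3.20), each apart from its neighbours in range. Tmsb10 (24.5 ± 6.32) overlapped Lcp1 (22.2 ± 2.75), and Lcp1 overlapped Arpc1b (19.3 ± 4.14). Capg (10.6 ± 4.09) and Coro1a (10.2 ± 2.20) overlapped each other, below the range of Arpc1b. In CDAA the order kept Actb in front with 211.2 ± 25.2 FPKM. Tmsb4x, at 57.9 ± 6.47 FPKM, then followed Actg1 and overlapped both Actg1 (79.8 ± 30.05) and Pfn1 (57.2 ± 3.21). Tmsb10 (7.12 ± 1.54 FPKM) overlapped Arpc1b (8.18 ± 0.993), and Capg (1.04 ± 0.400) overlapped Coro1a (1.66 ± 0.199). The share of all reads over genes that fell on the 10 was 0.220 ± 0.0236% under CSAA and 0.126 ± 0.0123% under CDAA.

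All 10 genes had a lower mean in the libraries labelled CDAA, and for 9 of them every CDAA library lay below every CSAA library. Of the 12845 genes tested, 20.4% were separated in that direction. At an edgeR adjusted p under 0.05, 7 of the 10 were called lower and 0 higher, against 10.5% of all tested genes lower, 4.25% higher and 14.8% in either direction. By DESeq2 8 were called lower and 0 higher, while of all genes it called 1584 lower and 1103 higher. At an unadjusted edgeR p under 0.05 the counts were 9 and 0, and the share of all genes was not taken. The genes had been chosen on this contrast, so these counts are not read further. Leaving out single libraries left 5 to 7 called, with 568 to 1456 lower among all genes. The median log2 fold change of the 10 was -0.74, and that of all tested genes was 0.00. Levels from here on are CPM, counts divided by the TMM-scaled library size. Without that scaling the median of all tested genes shifted by -0.28 on the log2 scale, and every member shifted further down with it.

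**Figure D1:**
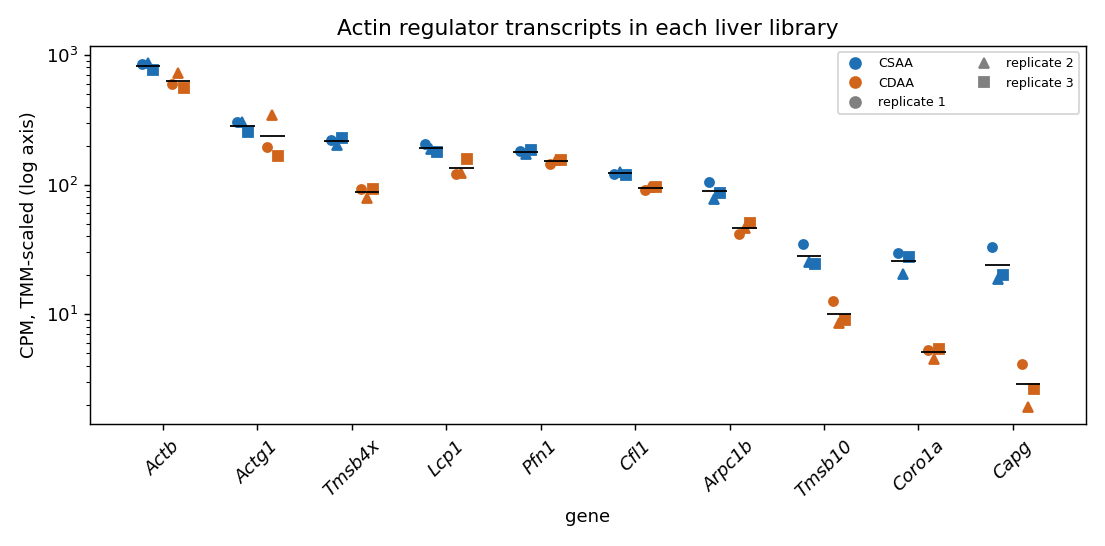
Level of each of the 10 transcripts in each library (vertical log axis, CPM on TMM-scaled library sizes), with CSAA in blue, CDAA in orange, marker shape for the replicate number and a black line for the group mean. Actg1 is the gene whose groups overlap, through CDAA replicate 2 at 344.0 CPM, and the gap between groups is widest for Coro1a and Capg.

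The actin monomers themselves come first. Actb, beta-actin, a gene often used as a reference for quantitative PCR, was at 848.7, 864.1 and 763.4 CPM in CSAA replicates 1 to 3 and at 591.3, 729.2 and 557.6 CPM in CDAA replicates 1 to 3. The groups lay apart, with CDAA replicate 2 closest to CSAA, and the log2 fold change was -0.40 ± 0.14 (SE), or 1.32-fold higher in CSAA. With library size only it was -0.69. Actg1, gamma-actin, was at 301.7, 302.0 and 252.5 CPM in CSAA and at 196.4, 344.0 and 167.0 CPM in CDAA. Here CDAA replicate 2 exceeded every CSAA library while the other CDAA libraries lay below them. The log2 fold change of Actg1 was -0.28 ± 0.25 and depended on single libraries, being -0.65 without CDAA replicate 2, -0.16 without CDAA replicate 1 and -0.08 without CDAA replicate 3. In FPKM there were 2.79, 2.84 and 3.00 Actb per Actg1 in CSAA, and 2.99, 2.10 and 3.31 in CDAA, where the low value again was CDAA replicate 2. In the files Actb (ENSMUSG00000029580) lies on chromosome 5 from 142888870 to 142892509 and Actg1 (ENSMUSG00000062825) on chromosome 11 from 120236516 to 120239368, both on the minus strand and in a build the headers do not name. On GRCm38 their coding sequences lie outside these ranges, at 142903798 to 142905686 and 120346390 to 120348091. File positions are therefore not GRCm38 ones for this pair, and positions given here on GRCm38 cannot be set against them.

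The genes that load, hold and recycle actin monomers split into a pair with small differences and a pair with larger ones. Pfn1, profilin, was at 180.2, 170.6 and 183.4 CPM in CSAA and at 144.0, 155.8 and 155.4 CPM in CDAA, a log2 fold change of -0.23 ± 0.09. Cfl1, the non-muscle cofilin, was at 120.8, 125.4 and 119.3 CPM in CSAA and at 90.8, 96.5 and 96.1 CPM in CDAA, a log2 fold change of -0.37 ± 0.09. Both were tight within a diet and did not overlap between diets. Tmsb4x, thymosin beta-4, the main monomer-sequestering peptide of many cells, was at 221.3, 202.0 and 228.7 CPM in CSAA and at 91.6, 78.5 and 92.2 CPM in CDAA. Its log2 fold change was -1.31 ± 0.11, or 2.48-fold higher in CSAA. Tmsb10, thymosin beta-10, was at 34.5, 25.5 and 24.4 CPM in CSAA and at 12.6, 8.60 and 8.96 CPM in CDAA, a log2 fold change of -1.49 ± 0.20. Replicate 1 was the highest library for Tmsb10 in each diet. Ratios among these transcripts are given as a description, since the members were chosen on this contrast. No share over ratios of other genes was taken. In FPKM, the thymosins together amounted to 0.438, 0.384 and 0.489 of the actins together in CSAA and to 0.260, 0.159 and 0.274 in CDAA, without overlap. For Cfl1 the same ratio to the actins was 0.103 ± 0.00614 in CSAA and 0.106 ± 0.0202 in CDAA, and for Pfn1 it was 0.179 ± 0.0195 and 0.201 ± 0.0386 (mean ± SD, n = 3 each), with overlapping ranges.

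The filament-associated members had the largest differences of the 10 and also one of the smaller ones. Capg, a macrophage capping protein of the gelsolin family, was at 33.1, 18.8 and 20.2 CPM in CSAA and at 4.11, 1.93 and 2.63 CPM in CDAA. CSAA replicate 1 was well above the other CSAA libraries, and all CDAA libraries lay far below. The log2 fold change of Capg was -3.06 ± 0.33, or 8.33-fold higher in CSAA, and it ran from -3.39 without CDAA replicate 1 to -2.73 without CSAA replicate 1. Coro1a, coronin 1A of leukocytes, was at 29.5, 20.3 and 27.5 CPM in CSAA and at 5.33, 4.52 and 5.40 CPM in CDAA, a log2 fold change of -2.34 ± 0.18 (5.06-fold higher in CSAA). Arpc1b, the Arp2/3 subunit form that predominates in blood cells, was at 105.2, 76.8 and 85.6 CPM in CSAA and at 41.6, 45.9 and 50.8 CPM in CDAA, a log2 fold change of -0.95 ± 0.14. None of the 3 overlapped between diets. Lcp1, which bundles filaments in leukocytes, was at 204.2, 189.6 and 179.8 CPM in CSAA and at 121.7, 121.9 and 156.5 CPM in CDAA, with CDAA replicate 3 nearest to CSAA. Its log2 fold change was -0.52 ± 0.13, or 1.43-fold higher in CSAA. In the files' coordinates Coro1a overlaps Bola2, Cfl1 overlaps Snx32 and Arpc1b overlaps Pdap1. The strand setting of the counting is not given, so reads shared with these neighbours were not separated.

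In the same libraries most leukocyte and stellate cell markers were lower in CDAA, while 1 endothelial and 1 cholangiocyte marker passed. For comparison, 10.5% of all tested genes were lower and 4.25% higher. Counts are given out of all listed markers, of which 13 leukocyte, 9 stellate and 5 cholangiocyte markers had enough reads to be tested. Of 14 leukocyte and macrophage markers 11 passed as lower in CDAA and 0 as higher, and their summed level was 747.3 to 1203 CPM in CSAA against 232.5 to 318.1 CPM in CDAA, with no marker at 0 in any library. By DESeq2 12 were lower, and among all genes it called 1584 lower and 1103 higher. Ptprc, the pan-leukocyte phosphatase CD45, fell, from a mean of 71.9 ± 9.29 CPM to one of 19.5 ± 4.18 CPM, with a log2 difference of -1.88 ± 0.17 (adjusted p by edgeR = 0.00123). Of 10 stellate cell and myofibroblast markers 7 were lower (4 without CDAA replicate 2 and 3 without CSAA replicate 1). Their sums were 874.9 to 1241 CPM and 300.7 to 571.2 CPM. The rest had higher means in CDAA. Acta2 (means 15.3 and 28.4 CPM) and Des (7.85 and 10.4 CPM) overlapped between diets, and CDAA replicate 1 was highest for both. Tagln, with too few reads to test and at 0 in some libraries, was higher in CDAA without overlap (0.0178 and 0.298 CPM). Of 8 endothelial markers 1 was lower (6 with library size only, 0 without CSAA replicate 1 or CSAA replicate 2, 2 without CDAA replicate 1), with sums of 410.2 to 449.3 CPM and 343.5 to 364.5 CPM. Of 6 cholangiocyte markers 1 was lower (0 without any single CSAA library or without CDAA replicate 2), with sums of 56.5 to 83.2 CPM and 31.0 to 47.0 CPM. Of 10 hepatocyte markers 2 were higher (0 to 2 over the omissions and 6 by DESeq2), with sums of 64972 to 85798 CPM in CSAA and 97704 to 109814 CPM in CDAA, so the labelled tissue fits its markers. CDAA replicate 1 also held 1900 CPM of 9 pancreatic acinar genes, against at most 14.6 CPM elsewhere, and 283.1 CPM of 10 striated muscle genes, against at most 1.62 CPM. The part of these shifts in the members' differences was not tested.

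Set against Ptprc, 1 of those markers, the members differed in direction. Per read of Ptprc there were 0.405, 0.298 and 0.285 reads of Capg in CSAA and 0.234, 0.116 and 0.108 in CDAA. For Coro1a the ratios were 0.360, 0.320 and 0.388 in CSAA and 0.303, 0.271 and 0.222 in CDAA, both without overlap between diets and lower in CDAA. The opposite held for Lcp1, with 2.50, 3.00 and 2.54 reads per read of Ptprc in CSAA and 6.92, 7.31 and 6.44 in CDAA. Arpc1b went from 1.24 ± 0.0436 to 2.40 ± 0.335 and Tmsb4x from 3.04 ± 0.292 to 4.57 ± 0.720 reads per read of Ptprc (mean ± SD, n = 3 each), again without overlap. Tmsb10 overlapped, at 0.390 ± 0.0406 and 0.533 ± 0.174. These directions depended on the marker set against the members. Over the 13 leukocyte and macrophage markers tested, an alternative chosen after the data were seen, Capg and Coro1a were each lower in CDAA without overlap against 7 and overlapped against 6, among them Lyz2 and Itgb2. Lcp1 was higher without overlap against 12, Arpc1b against 9, Tmsb4x against 7 and Tmsb10 against 4, and the groups overlapped for the rest, Csf1r among them for Arpc1b and Tmsb4x. Ratios within a library do not depend on the scaling, and they show unequal change, not which gene moved. The share of all tested genes with such separated ratios was not taken. A gene at the median of all tested genes (log2 fold change 0.00) would also be higher in CDAA per read of Ptprc (-1.88). A higher ratio is therefore not read as particular to these members.

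**Figure D2:**
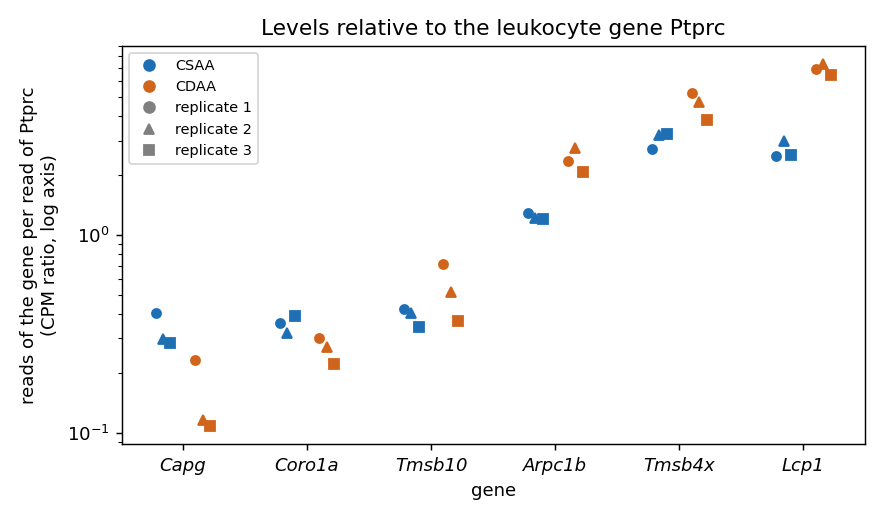
Reads of 6 members per read of Ptprc in each library (vertical log axis), CSAA in blue and CDAA in orange, marker shape for the replicate number. The CDAA libraries lie below CSAA for Capg and Coro1a and above CSAA for Arpc1b, Tmsb4x and Lcp1, while Tmsb10 overlaps.

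Genes outside the 10 were compared by function. The wider actin lists held 131 genes, of which 121 had enough reads to be tested. Of these, 48 were lower in CDAA, 0 were higher and 73 did not pass at an edgeR adjusted p under 0.05, against 10.5% of all tested genes lower and 4.25% higher. At an unadjusted p under 0.05, 64 were lower and 1 higher, and the share of all genes was not taken. DESeq2 called 52 and 0, against 1584 lower and 1103 higher among all genes. The median log2 fold change was -0.35, against 0.00 for all tested genes. Without CSAA replicate 1 the lower count was 24 (568 among all genes). Over the other single omissions it ran from 32 to 50 (757 to 1456 among all genes). With library size only it was 71 (2745 among all genes). The lists were written from general knowledge with earlier results of these libraries known.

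**Figure D3:**
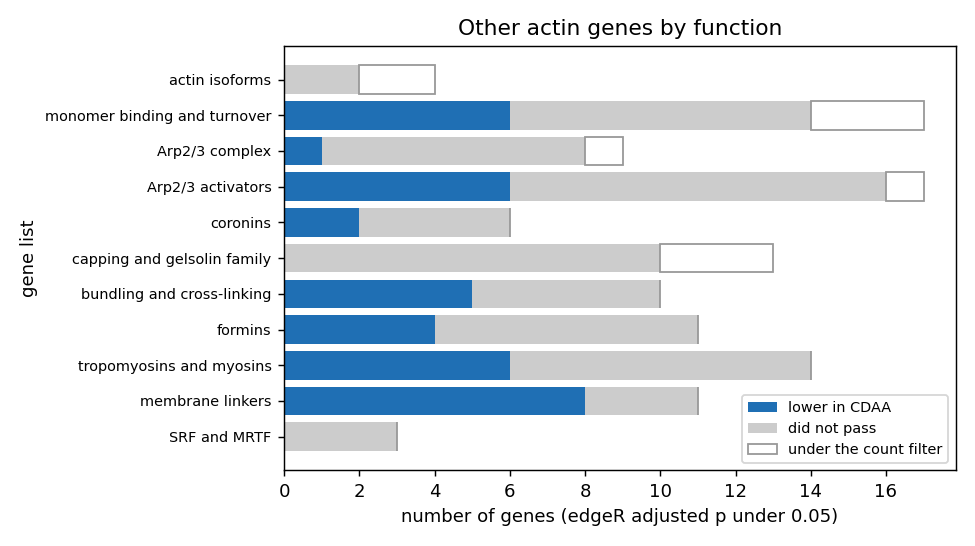
Number of genes in each of 11 functional lists of other actin genes (horizontal axis), split into those lower in CDAA (blue), those that did not pass (grey) and those with too few reads to test (white). The count of lower genes is largest among those drawn for membrane linkers, with 8 of 11, and is 0 for actin isoforms, for the capping and gelsolin family and for SRF with its cofactors.

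Several subunits of the Arp2/3 complex have alternative forms, and Arpc1b was measured with 8 other subunit genes that had enough reads. Of those 8, 1 was lower, 0 higher and 7 did not pass. Actr3, the Arp3 subunit, fell, from a mean of 147.3 ± 3.60 CPM to one of 105.6 ± 5.85 CPM (log2 difference -0.48 ± 0.09, adjusted p by edgeR = 0.0139), lower in 3 of 3 CDAA libraries, but did not pass without CSAA replicate 1 or without CDAA replicate 1 (highest edgeR adjusted p = 0.0666). Arpc1a, the alternative to Arpc1b, was at 37.1, 33.2 and 34.7 CPM in CSAA and at 34.1, 35.4 and 37.5 CPM in CDAA (log2 0.03 ± 0.10, edgeR adjusted p = 0.884), with the groups overlapping. Actr2 (log2 -0.04 ± 0.09), Arpc4 (-0.06 ± 0.10) and Arpc5l (0.13 ± 0.09) did not pass either. The same held for Arpc2 (-0.22 ± 0.09), Arpc3 (-0.24 ± 0.09) and Arpc5 (-0.19 ± 0.09), which passed as lower with library size only. In FPKM, Arpc1b stood at 1.27 times Arpc1a in CSAA and at 0.650 times in CDAA. This holds per listed length. In CPM, Arpc1b exceeded Arpc1a in every library of both diets, and reads of the overlapping Pdap1 were not separated from those of Arpc1b.

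**Figure D4:**
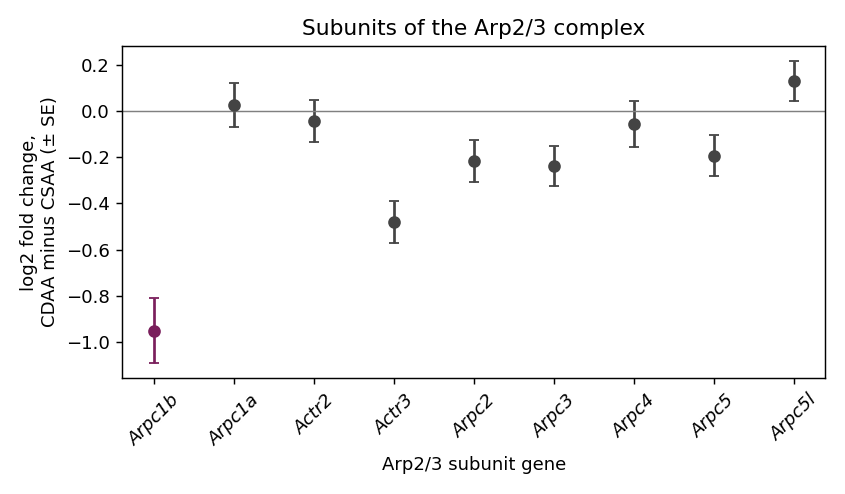
Log2 fold change, CDAA minus CSAA, of the Arp2/3 subunit genes on the TMM scale (points, with bars for the edgeR SE). Arpc1b, in purple, lies at -0.95, while Arpc1a lies at 0.03 and Actr3 at -0.48.

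Activators of the Arp2/3 complex included 6 lower genes among 16 tested, 0 higher and 10 that did not pass. Those named by rule were Nckap1l (log2 -1.70 ± 0.17, edgeR adjusted p = 0.00155), Hcls1 (-1.68 ± 0.18) and Was (-1.67 ± 0.27), which encode HEM1 of the leukocyte WAVE complex, a leukocyte cortactin relative and the Wiskott-Aldrich protein. All 3 passed in each of the 6 fits that left out a library. Single omissions, taken as the 3 CSAA libraries and then the 3 CDAA libraries by number, gave 3, 4, 5, 4, 4 and 5 lower genes in this list. Coronins other than Coro1a gave 2 lower genes of 6, Coro2a (log2 -2.05 ± 0.38, edgeR adjusted p = 0.0121) and Coro7 (-0.58 ± 0.12, edgeR adjusted p = 0.0197). Coro2a lost its call on omission of CSAA replicate 1, and Coro7 on omission of any CSAA library or of CDAA replicate 1 (highest adjusted p by edgeR = 0.0599 and 0.0692). Coro1b (-0.35 ± 0.10) and Coro1c (-0.39 ± 0.15) did not pass (edgeR adjusted p = 0.0558 and 0.11), though both did without CDAA replicate 3 and with library size only. The same omissions, in the same order, gave 0, 1, 1, 1, 2 and 4 lower coronins.

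Of 11 proteins that link filaments to the membrane 8 were lower. Msn, moesin, fell, from a mean of 118.8 ± 10.5 CPM to one of 50.2 ± 1.58 CPM (log2 difference -1.24 ± 0.10, adjusted p by edgeR = 0.00121), Evl, of the Ena/VASP family, by 2.14 ± 0.19 and the leukocyte kindlin gene Fermt3 by 1.66 ± 0.19 on the log2 scale. Rdx, the radixin that predominates in hepatocytes, measured at 259.3 ± 9.97 CPM under CSAA against 290.7 ± 19.2 CPM under CDAA. Its log2 difference of 0.17 ± 0.10 missed the threshold (adjusted p by edgeR = 0.327). All CDAA values of Rdx lay above CSAA, which 15.6% of tested genes showed. In the order used above, the omissions gave 4, 5, 4, 5, 4 and 7 lower linkers.

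Motor and filament-coating genes had 6 lower of 14, led by Myo9b (log2 -0.94 ± 0.10, edgeR adjusted p = 0.00155), Myo1g (-2.20 ± 0.22) and Myo1f (-2.68 ± 0.28), the last a myosin of myeloid cells. Omissions gave 4, 4, 6, 4, 5 and 7. Bundling and cross-linking genes had 5 lower of 10, among them Marcks, a membrane-bound filament cross-linker (log2 -1.13 ± 0.10, edgeR adjusted p = 0.00121), Flna, filamin A (-0.89 ± 0.19), and Marcksl1 (-0.86 ± 0.21). Flna lost its call when CSAA replicate 1, CSAA replicate 2 or CDAA replicate 2 was omitted (highest adjusted p by edgeR = 0.0842). Marcksl1 lost its call on omission of CSAA replicate 1, CSAA replicate 3, CDAA replicate 1 or CDAA replicate 2 (highest 0.119). Omissions gave 1, 2, 2, 2, 2 and 5 lower genes in this list. Pls3, the plastin of non-blood cells, was at 58.4, 85.0 and 72.0 CPM in CSAA and at 88.1, 111.4 and 91.6 CPM in CDAA. It missed the threshold, with a log2 difference of 0.43 ± 0.16 (adjusted p by edgeR = 0.102). Its CDAA values all lay above CSAA, which 15.6% of tested genes showed. Pls1, with means of 1.84 ± 0.545 and 1.80 ± 1.38 CPM, missed it too.

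Formins, which extend unbranched filaments, had 4 lower genes of 11: Fmnl1 (log2 -2.13 ± 0.31, edgeR adjusted p = 0.00475), Fhod1 (-0.67 ± 0.13), Fmnl3 (-0.85 ± 0.21) and Diaph3. Fhod1 lost its call on omission of CSAA replicate 1 or CSAA replicate 3 (highest adjusted p by edgeR = 0.0725). Fmnl3 lost it on omission of replicate 1 or replicate 3 of either diet (highest 0.129), and Diaph3, at 3.26 ± 0.841 and 1.13 ± 0.482 CPM, in every omission. Omissions gave 1, 3, 1, 2, 4 and 3 lower formins. Among 14 tested genes of monomer binding and turnover 6 were lower, led by Twf2, a monomer-binding twinfilin (log2 -1.43 ± 0.22, edgeR adjusted p = 0.00618). Next came Wdr1, a cofactor of cofilin (-0.50 ± 0.08), and Ssh1, a phosphatase that activates cofilin (-0.62 ± 0.11). Ssh1 did not pass without CSAA replicate 1 (edgeR adjusted p = 0.0558), and omissions gave 2, 4, 3, 3, 3 and 6. The relatives of the members here did not pass. Cfl2 had a log2 fold change of 0.17 ± 0.10, Dstn, which encodes the cofilin relative destrin, one of 0.13 ± 0.12 and Pfn2 one of 0.06 ± 0.25.

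In the capping and gelsolin family 0 of 10 tested genes passed by edgeR, 4 were lower and 0 higher at an unadjusted p under 0.05, and DESeq2 called 0. With library size only 5 were lower, and without CDAA replicate 1 there was 1, against 0 in each other omission. The share of all genes at the unadjusted threshold was not taken. Gsn, gelsolin, the nearest relative of Capg in the list, was at 74.4, 60.7 and 40.1 CPM in CSAA and at 127.0, 36.6 and 28.0 CPM in CDAA. CDAA replicate 1, the library with acinar and muscle transcripts, was the highest of all and the other CDAA libraries the lowest. The log2 fold change of Gsn was 0.13 ± 0.53, and -0.85 ± 0.26 without CDAA replicate 1 (edgeR adjusted p = 0.0895). Acta2, smooth muscle actin, had the same order of libraries within CDAA. It was at 21.6, 15.7 and 8.45 CPM in CSAA and at 54.0, 21.6 and 9.53 CPM in CDAA (log2 0.89 ± 0.58, edgeR adjusted p = 0.343). Of 4 other actin isoforms, 2 had enough reads and 0 passed by edgeR, at an unadjusted p under 0.05 or by DESeq2. Srf, the transcription factor that drives actin genes, and its cofactors Mrtfa and Mrtfb did not pass, with log2 fold changes of 0.18 ± 0.13, -0.44 ± 0.14 and 0.01 ± 0.19. At an unadjusted p under 0.05, 1 of the 3 was lower, and DESeq2 called 0.

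Several members belong to pairs in which one gene is abundant in leukocytes and a relative is expressed more widely. The ratio of the former to the latter was taken in FPKM with 0.1 added, for 4 pairs with a member and 8 without. Capg per Gsn was 0.516 in CSAA and 0.0743 in CDAA, Coro1a per Coro1b 0.492 and 0.131, and Lcp1 per Pls3 1.20 and 0.614, as ratios of geometric means. The log2 ratio of Capg to Gsn was -4.54, -3.74 and -2.97 in CDAA replicates 1 to 3, lowest where Gsn was highest. In the 8 pairs without a member the mean log2 ratio was lower in CDAA each time, with differences of -0.51 to -2.24. The exact two-sided permutation p was 0.1 for 7 of them, the smallest that 3 against 3 libraries allow, and 0.2 for Gmfg with Gmfb (0.114 for each of the 7 and 0.2 for Gmfg after Benjamini-Hochberg adjustment over the 8 pairs). The largest difference was that of Myo1f with Myo1c, from 0.557 to 0.118. Each of these leukocyte forms except Gmfg passed the edgeR test as lower, and 0 of the 8 relatives passed. Arhgdia and Fmnl2 were near the threshold (edgeR adjusted p = 0.0602 and 0.0503). Of all tested genes, 10.5% were lower and 14.8% passed in either direction. The pairs were chosen after the files had been opened, so these counts and the permutation p are a description and support nothing.

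**Figure D5:**
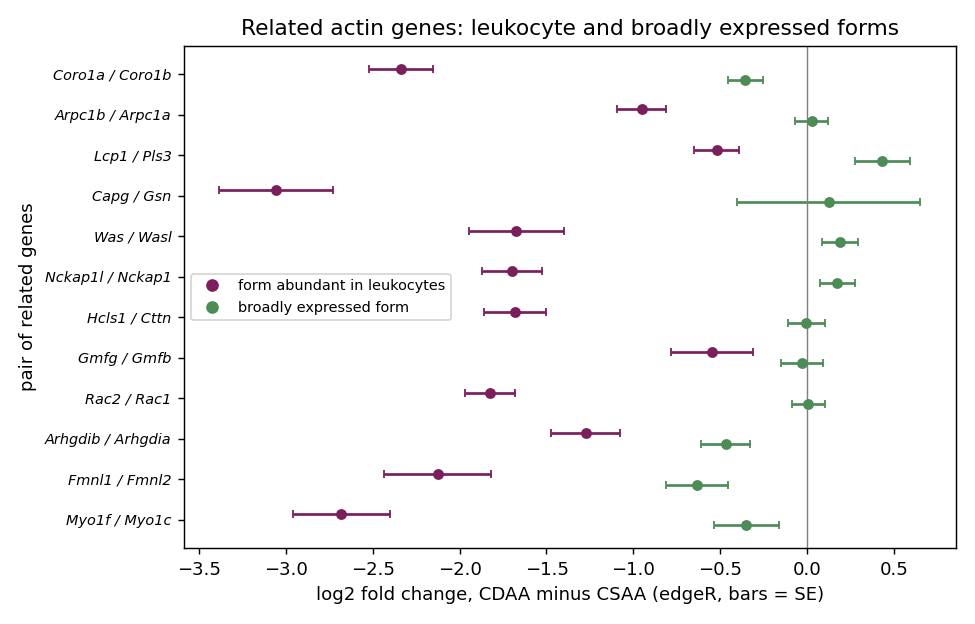
Log2 fold change, CDAA minus CSAA, for pairs of related actin genes (points on the horizontal axis, bars for the edgeR SE), with the form abundant in leukocytes in purple and the broadly expressed form in green. The purple point lies left of the green point in all 12 pairs, and the green points lie between -0.63 and 0.43. That of Gsn, at 0.13, rests on CDAA replicate 1 and was -0.85 without it.

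Among genes outside the 10 with at least 10 CPM on average, likeness to the mean profile of the members was measured. The measure was the root mean square difference between centred log2 CPM profiles over the 6 libraries. The members were chosen on the diet contrast, so genes near their mean share that difference by construction. The nearest were Col4a1 (0.0607), Ppp1r9b (0.0658), Pld3 (0.0699), Ly6e (0.0704) and Zmynd15 (0.0803), of 8326 genes compared. Their log2 fold changes ran from -1.11 to -1.19, whereas single members ran from -0.23 to -3.06, so nearness to the mean is not likeness to each member. Ppp1r9b encodes spinophilin, an actin-binding scaffold, and was at 40.0, 33.1 and 34.7 CPM in CSAA and at 15.1, 16.3 and 16.5 CPM in CDAA. Col4a1, a basement membrane collagen, was at 168.8, 137.1 and 142.9 CPM in CSAA and at 76.2, 65.5 and 66.1 CPM in CDAA. The mean profile of the members itself was highest in CSAA replicate 1 (0.68 above its centre) and close to level among the CDAA libraries (-0.50, -0.54 and -0.55).

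RefSeq start sites on GRCm38.p6 were matched for 9 of the 10 genes, with 13 windows from 250 bases before to 50 bases after a start. Actb was the gene without a window, so its promoter was not searched for any motif. Motifs were sought on both strands. The CArG box, bound by SRF, was found in 1 of these windows, that of Actg1, and in 1.63% of 32851 windows of the same length. The 250 bases before the Actg1 start (chr11:120348496-120348745, minus strand) are shown because Actg1 is the member whose groups overlapped, with the CArG box in capitals, starting 90 bases before the start site.
Actg1: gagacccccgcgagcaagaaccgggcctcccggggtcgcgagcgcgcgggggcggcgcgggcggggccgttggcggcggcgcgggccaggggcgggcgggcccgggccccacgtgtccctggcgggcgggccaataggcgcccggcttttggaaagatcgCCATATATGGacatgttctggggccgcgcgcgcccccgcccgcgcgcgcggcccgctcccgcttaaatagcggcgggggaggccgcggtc
The letters GGGCGG were found in at least 1 window for 8 of the 9 genes, some of which had more than 1 window, and in 35.7% of all windows. The count per gene and the share per window are unlike units. Capg, searched in 1 window, was the gene without them, and a window of Lcp1 lacked them too. A relation between these letters and the difference between diets was not tested. Because Capg had the largest difference, its 250 bases before the start (chr6:72549397-72549646, plus strand) follow.
Capg: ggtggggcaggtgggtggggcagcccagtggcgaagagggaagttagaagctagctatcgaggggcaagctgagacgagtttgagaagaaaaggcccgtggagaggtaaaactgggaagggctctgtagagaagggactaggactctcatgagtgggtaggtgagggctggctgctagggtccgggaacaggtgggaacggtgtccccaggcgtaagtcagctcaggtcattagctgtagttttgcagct
The letters GAGGAA were found in 1 window, that of Arpc1b (28.3% of all windows), and TATAAA in 0 (13.6% of all windows). GC content ran from 44.3% in a window of Lcp1 to 77.3% in that of Actg1, against a median of 52.7% over all windows. A match is a description of letters, not of binding.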

How the data were processed

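Each deposited file held 1 liver library with whole-number read counts per gene and FPKM, per the file headers. The counts were not normalised by the authors. The authors' FPKM equalled the count scaled by listed gene length and library total within a relative tolerance of 0.001, and was used for levels between genes. The submitters' processing notes name HISAT2 2.0.5, HTSeq 0.9.1, cutadapt 1.15 and DESeq 1.30.0, and both mm10 and mm9. No strand or multi-match setting is given there.

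The quasi-likelihood test of edgeR 4.0.16 (R 4.3.3), after filterByExpr and TMM, compared CDAA with CSAA over 12845 genes, with Benjamini-Hochberg adjusted p under 0.05. The SE is the log2 fold change over the square root of F. Counts were simulated with 200 of 12845 genes changed, as many up as down. Recovered were 11 of 67 genes changed 1.5-fold, 38 of 67 changed 2-fold and 54 of 66 changed 4-fold. In addition 13 unchanged genes were called. The fit of the real counts called 14.8% of genes, more of them lower than higher, so these rates need not hold for it. Per the labels, the libraries come from separate mice.

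Alternatives were RLE factors, library size only, no filter, DESeq2 1.42.0, the replicate number as a block, and leaving out each library. Members and lists were chosen with earlier results of these data known. Genes were named by rule: the members, their relatives, the Arp2/3 subunits, up to 3 passing genes per list with the smallest adjusted p and a group mean of at least 5 CPM, and the 5 most alike in profile. Diaph3 and Rdx were added after their values were seen, and the leukocyte and broad pairs were chosen after the files had been opened. Srf, Mrtfa, Mrtfb, Myl9, Actg2 and the cell type markers were also named outside that rule. Of the listed genes 1 had no match. The result of 1 of the wider lists, which stays in their totals, is not reported here. Replicates differed by more than sampling noise.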

Additional observations from a re-analysis of the deposited data

How the results depend on the processing

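With library size only, 2745 genes were lower and 137 higher (95.2% and 4.75% of calls, against 71.3% and 28.7% with TMM), 71 genes of the wider actin lists were lower, and the median log2 fold change of the 10 members was -1.02. DESeq2 called 1584 genes lower and 1103 higher. Leaving out single libraries gave 568 to 1456 lower genes, 76 to 688 higher genes, 24 to 50 lower and 0 to 1 higher genes of the wider lists, and a member median of -0.84 to -0.62. The wider gene called higher was Myl9, without CDAA replicate 3. The cause of these shifts was not tested. Of the 48 wider genes called, 24 passed in all 6 omissions, as did 16 of the 24 named by rule. Over all alternatives, 102 of 110 member fold changes moved by less than the replicate SD, 8 moved further, all with library size only, and 0 reversed.

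The replicate numbers are not stated to pair the mice, and deviations of same-numbered libraries from their group means correlated at 0.07, 0.12 and -0.06. With the replicate block 1090 genes were lower and 293 higher, 38 wider genes were lower and 1 higher (Actg2), and 5 members were called.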
